A study of Mus musculus with 2 samples.

Results

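The regions described here are 1338 unannotated intergenic loci of mouse skeletal muscle. They are stretches of the genome in which long RNA reads formed transcript models that the authors' tables class as intergenic, that is, as belonging to no annotated gene. Intergenic models of both libraries, spike-in sequences left out, were merged into 1 locus where they overlapped on the same strand, and a locus became a member when it held at least 2 reads in the sum of both libraries. Of 4213 loci formed in this way, 1338 met that minimum and the other 2875 had a single read. The members were thus chosen by their class and by their summed reads in these libraries, so the numbers of loci and of reads are a description. Just inside the minimum lay 621 loci with exactly 2 reads, with a median exonic length of 214 bases and 11.1% of them multi-exon. Just outside it, the 2875 loci with 1 read had a median of 237 bases and 9.67% were multi-exon.

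The libraries were made from total RNA of gastrocnemius, the large calf muscle, of female B6CASTF1/J mice aged 14 days, with a starting quantity of 2 µg each. B6CASTF1/J mice are first-generation offspring of a cross between C57BL/6J and CAST/EiJ, and no agent or mutation is labelled. The design holds 1 group of 2 biological replicates and no contrast between conditions, so replicate 1 over replicate 2 is the only ratio. For replicate 1 the biosample is described as 3 females, for replicate 2 as a female without a count, so whether animals were pooled is not clear.

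The tables held 1316937 reads in replicate 1 and 1204188 in replicate 2, of which 1269590 and 1162600 lay outside the spike-ins. Averaged over reads, models were 2336 bases long in replicate 1 and 1510 bases in replicate 2, so the libraries stood apart in length. The 6 fibre markers, among them Acta1 (skeletal actin) and Ckm (muscle creatine kinase), all had reads in both libraries and summed to 313925 CPM in replicate 1 and 267899 CPM in replicate 2, where CPM scales a library's reads of annotated genes to 1e6. The 4 fibroblast markers summed to 7919 and 3397 CPM and the 4 Schwann cell markers to 570 and 2449 CPM in replicates 1 and 2. The endothelial, red cell, macrophage, fat and tendon lists, 13 genes of which 12 had reads in both libraries, summed to between 5.6 and 1441 CPM in replicate 1 and between 2.7 and 1263 CPM in replicate 2. The part of these cells in the results was not tested. None of the 27 marker genes was the nearest gene of an intergenic locus.

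Intergenic transcription comes from several known kinds of unit. Processed pseudogenes are copies of messenger RNAs that were reverse transcribed and inserted elsewhere in the genome, and they often resemble their parent gene so closely that reads of one can align to the other. Short interspersed elements such as the mouse B2 family are small mobile repeats, transcribed by RNA polymerase III or carried within longer transcripts. Active promoters often fire in both directions, which gives upstream RNAs that start beside a gene and run away from it, and transcription past a gene's last exon gives readthrough RNA on the same strand.

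Sequences of 3 kinds recur in the results and are shown here. The first is the border between a pseudogene and a locus. Many of the most-read loci began at the last base of an annotated pseudogene, and in the pairs shown that base was the last base of the stop codon, in capitals, inherited from the parent gene (GENCODE M21, mm10, coding strand):
Gapdh coding end, chr6:125162032-125162076 (minus strand): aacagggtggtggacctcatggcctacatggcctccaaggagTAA
Gm12033, chr11:20335012-20335056 (minus strand): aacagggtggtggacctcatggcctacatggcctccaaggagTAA
Gm12671, chr4:91851668-91851712 (minus strand): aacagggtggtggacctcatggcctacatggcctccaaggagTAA
Hspb1 coding end, chr5:135889386-135889430 (plus strand): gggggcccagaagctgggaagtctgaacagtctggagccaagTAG
Hsp25-ps1, chr13:45078498-45078542 (minus strand): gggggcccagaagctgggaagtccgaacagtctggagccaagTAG
Gm12033 differed from the whole 1002-base coding sequence of Gapdh at 1 position and Gm12671 at 0.

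The second kind is a group of short single-exon loci of 170 to 185 bases. Genome letters were at hand only where a promoter window of RefSeq (GRCm38.p6, the 250 bases before to 50 after a gene's start) reached a locus, which was so for 4 loci of this length. One of them lay whole inside a window and is shown with parts of 2 others, on the strand of the locus, with the longest run that each shares with the first in capitals, in both:
chr9:72779460-72779643 (minus strand, window of Gm27204): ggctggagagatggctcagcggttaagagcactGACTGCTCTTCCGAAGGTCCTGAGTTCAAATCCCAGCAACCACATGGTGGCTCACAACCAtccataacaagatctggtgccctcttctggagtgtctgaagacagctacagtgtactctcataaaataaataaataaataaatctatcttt
chr19:57404215-57404272 (minus strand, window of Gm41874): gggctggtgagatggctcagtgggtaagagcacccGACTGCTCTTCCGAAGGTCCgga
chr7:29237511-29237643 (minus strand, window of Yif1b): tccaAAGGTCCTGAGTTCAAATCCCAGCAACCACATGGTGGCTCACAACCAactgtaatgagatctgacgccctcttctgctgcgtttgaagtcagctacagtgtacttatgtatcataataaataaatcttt
The first and second share a run of 20 bases, found on either strand in 11 of 32851 promoter windows (0.0335%), and the first and the one in the Yif1b window a run of 47 bases, found in 6 windows (0.0183%). The opening letters of the first, the stretch in capitals and the A-rich tail resemble the B2 short interspersed element as known from textbooks. The capitals mark shared letters only, and no repeat annotation was used here. The fourth locus, chr3:88553074-88553251 in the window of Lamtor2, shared no run longer than 6 bases with the first.

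The last kind is the start of a locus that runs away from a gene. The locus chr11:80383041-80383279 on the minus strand starts at the first base of Zfp207, a zinc finger protein of the mitotic spindle, and lies whole inside that gene's promoter window. It is shown on its own strand with the 2 overlapping matches to AATAAA, the core polyadenylation signal, in capitals, of which the last begins 24 bases from the end of the locus:
chr11:80383041-80383279 (minus strand, window of Zfp207): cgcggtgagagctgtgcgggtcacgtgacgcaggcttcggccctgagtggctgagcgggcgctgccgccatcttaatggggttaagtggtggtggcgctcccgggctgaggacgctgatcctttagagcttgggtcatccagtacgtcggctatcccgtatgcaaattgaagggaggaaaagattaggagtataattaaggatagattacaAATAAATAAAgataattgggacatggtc
The letters AATAAA were present on either strand in 19.6% of all promoter windows. The locus chr2:69668042-69670120 on the minus strand starts at the first base of Klhl41, a muscle Kelch protein that stabilises the thin filament protein nebulin. Its first 251 bases, read from the window of Klhl41, hold a match to the MEF2 motif, in capitals:
chr2:69669870-69670120 (minus strand, window of Klhl41): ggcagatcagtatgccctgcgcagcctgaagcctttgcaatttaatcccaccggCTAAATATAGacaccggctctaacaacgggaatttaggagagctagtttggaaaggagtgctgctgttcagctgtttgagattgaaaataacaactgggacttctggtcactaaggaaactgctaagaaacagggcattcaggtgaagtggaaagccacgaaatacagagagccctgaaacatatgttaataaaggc
A MEF2 motif on either strand was present in 183 of the 32851 windows (0.557%). A match of letters is a description and not a binding site.

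The loci were numerous but held few reads. Members had 3803 reads in replicate 1, or 0.30% of reads outside the spike-ins (Wilson 95% interval 0.290 to 0.309%), and 7687 reads in replicate 2, or 0.661% (0.647 to 0.676%), intervals that cover counting error only. Replicate 1 showed 720 of the loci and replicate 2 showed 1261, and 643 had reads in both. These 643 are 89.3% of the loci of replicate 1 and 51.0% of those of replicate 2. Both shares depend on the 2-read minimum, since a locus with 1 read in a library stayed only if the other library had it too. The minimum left out 777 loci with their only read in replicate 1 and 2098 with it in replicate 2. Of the members, 618 had reads in replicate 2 alone and 77 in replicate 1 alone. Reads in both were present for 48.1% of members and 52.6% of loci of the tables' antisense class with at least 2 reads. They were present for 70.2% of long noncoding RNA genes and 92.4% of protein-coding genes with at least 2 reads. The median reads of these 4 sets were 3, 3, 4 and 24, so the sets are not matched for reads. Loci formed without replicate 1 numbered 1004 and those formed without replicate 2 numbered 300. A count of 0 in a library allows up to 3 reads.

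Reads were concentrated in a few loci. The most-read locus alone took 34.1% of member reads in replicate 1 and 7.27% in replicate 2, and the 20 most-read took 62.4% and 40.4%. Of the 1338 loci, 9 had 100 reads or more in the sum, 145 had at least 10, and the median was 3. The plot of reads by library shows the most-read loci to be mostly neighbours of pseudogenes and the lower left corner to be crowded with loci of 2 to 4 reads.

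**Figure D1:**
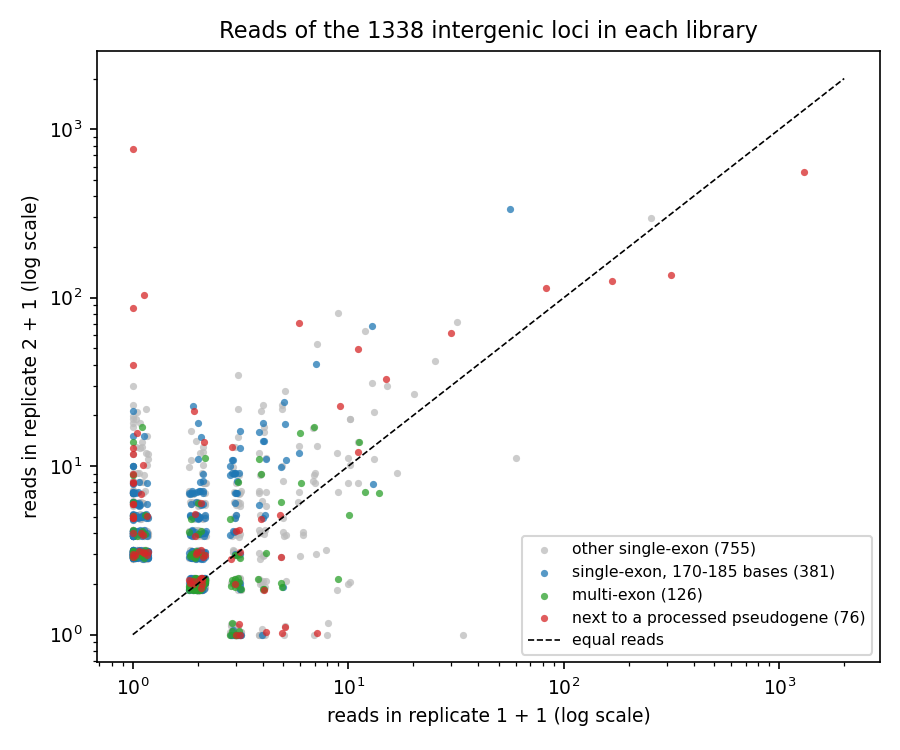
Reads of each intergenic locus in replicate 1 (x axis) and replicate 2 (y axis), both as reads + 1 on log scales with a small jitter, coloured by kind. The 76 loci next to a processed pseudogene (red) include the locus with 1295 reads in replicate 1 and 559 in replicate 2. Points on the left edge have no read in replicate 1, among them the red point at 758 reads, and the dashed line marks equal reads.

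Most loci were unspliced and short. A single exon was present in 1211 loci, and 127 (9.49%) had a model with more: 82 with 2 exons, 29 with 3, 10 with 4, 5 with 5 and 1 with 7. The exonic length had a median of 222 bases (quartiles 177 and 706.5) and reached 8137 bases. Among 4971 loci of the tables' antisense class with at least 2 reads, formed in the same way, 6.10% were multi-exon and the median length was 868 bases. Among annotated genes with at least 2 reads, 60.1% of 968 long noncoding RNA genes and 95.6% of 12077 protein-coding genes had a multi-exon model. By median the intergenic loci were shorter than the antisense loci and the noncoding genes, and their multi-exon share lay nearer to that of the antisense loci.

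Most loci lay within a few kilobases of an annotated gene. The median distance to the nearest annotated gene on either strand was 2320 bases (quartiles 500 and 8039), 882 of 1335 loci lay within 5 kb of one and 40 lay over 50 kb away. The class itself keeps out models that overlap a gene, and no locus shared more than 1 base with one, while 303 shared exactly 1 base, the border base of gene and locus. Those 303 loci held 67.1% of member reads in replicate 1 and 44.6% in replicate 2, a far larger part than their 22.6% of the loci. By relation to the gene, 118 lay downstream and 18 upstream on its strand, 125 start to start and 42 end to end. Whether these border ends are ends of the RNA or follow from how the models were bounded was not tested. The other 3 of the 1338 lay on scaffolds with no annotated gene.

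By side of the neighbour, loci downstream of a gene on its own strand held most reads. Within 5 kb, 292 loci lay downstream on the same strand, with 2258 reads in replicate 1 and 3304 in replicate 2, or 59.4% and 43.0% of member reads. A further 235 lay start to start with a gene on the opposite strand (306 and 732 reads), 209 end to end with one (480 and 1246 reads) and 146 upstream on the same strand (146 and 489 reads). Between 5 and 50 kb from a gene lay 413 loci with 560 and 1758 reads, the largest class by number and with a median exonic length of 178 bases.

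**Figure D2:**
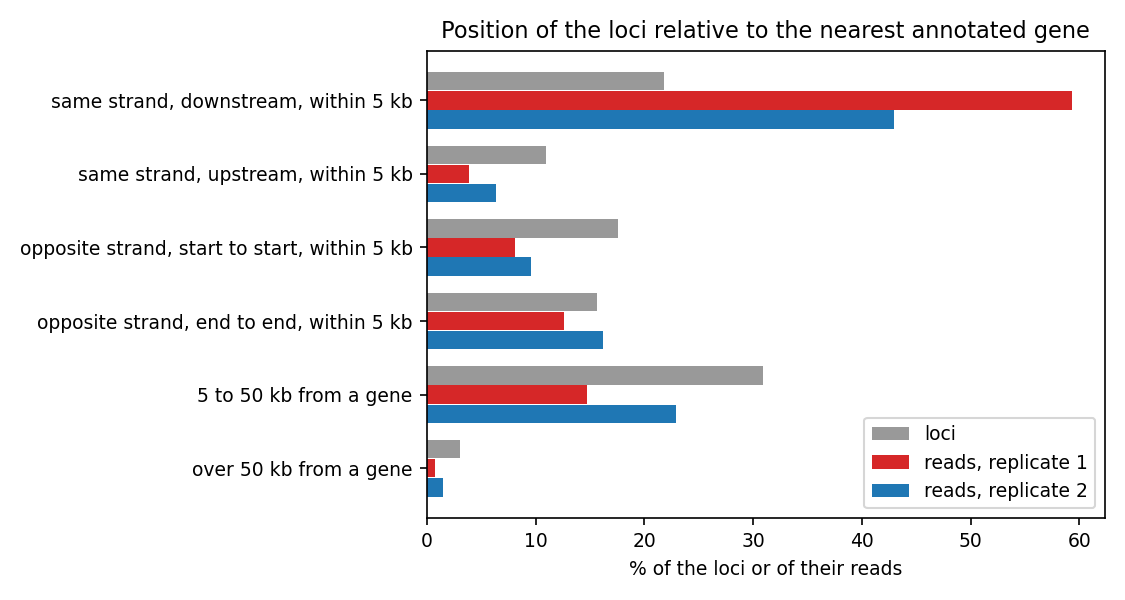
Share of the loci (grey), of their reads in replicate 1 (red) and of their reads in replicate 2 (blue), in percent, for each position relative to the nearest annotated gene. Loci downstream on the same strand within 5 kb make up 21.8% of loci and hold 59.4% of reads in replicate 1 and 43.0% in replicate 2.

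Loci next to processed pseudogenes held most of the downstream reads. Of the 292 downstream loci, 76 lay within 1 kb of a processed pseudogene, and these held 2002 reads in replicate 1 and 2389 in replicate 2, which is 52.6% and 31.1% of all member reads. They included 11 of the 20 most-read loci, and 64 of them shared the pseudogene's last base. For 73, a protein-coding transcript matched at least 80% of the pseudogene, with a median identity of 99.4%. Of those matches 17 were identical over the aligned part. The 73 pointed to 60 parent genes, and 70 of them had a parent with reads of its own. In 40 of the 73 the pseudogene annotation stopped at the last base of the parent's stop codon, as in the pairs printed above, and 34 of these 40 shared that base with the locus.

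The length of these loci followed what was left of the parent messenger in many cases. The bases of the parent transcript that lie after the matched part came within 20 bases of the length of the locus in 36 of the 73. RefSeq draws several of the same copies longer, and 59 of the 76 loci lay at least 50% inside the span of a RefSeq pseudogene.

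**Figure D3:**
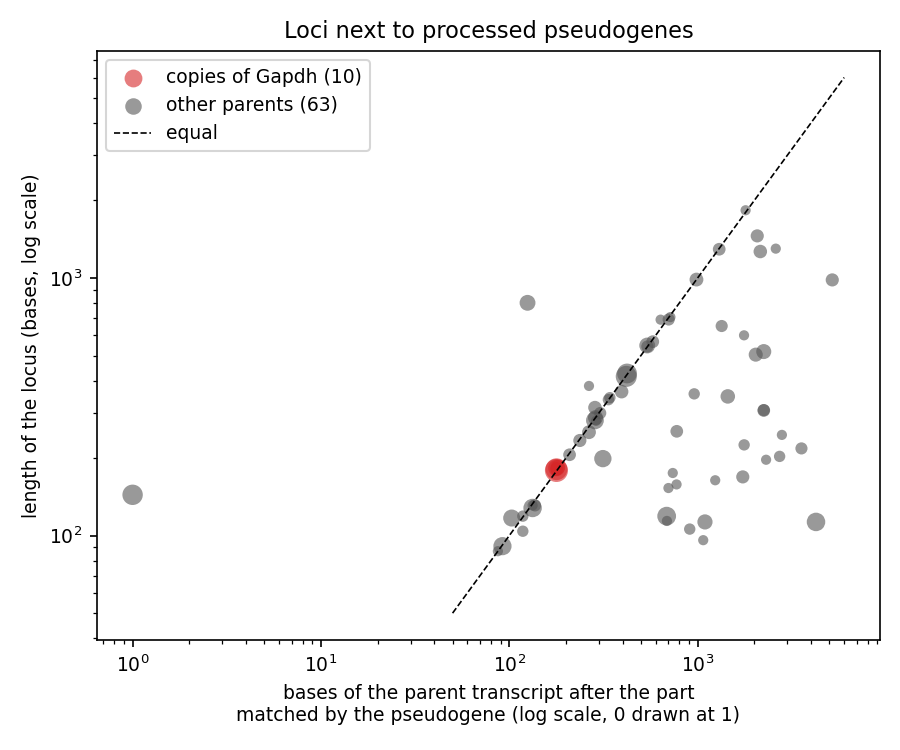
Length of each locus next to a processed pseudogene (y axis, bases) against the bases of the best-matching parent transcript that follow the part matched by the pseudogene (x axis, bases), both on log scales with 0 drawn at 1 and larger points for more reads. The copies of Gapdh (red) sit together at lengths of 179 to 184 bases, and 36 of the 73 points lie within 20 bases of the dashed line.

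Copies of Gapdh, the glycolytic enzyme glyceraldehyde-3-phosphate dehydrogenase, made up the largest family. For 10 loci Gapdh was the best match of the pseudogene, with identities from 97.9 to 100%, and their spans of 179 to 184 bases lay beside the 178 bases that follow the stop codon in the Gapdh transcript used for the match. Together they had 1311 reads in replicate 1 and 1361 in replicate 2. The Gapdh gene itself had 69 and 74 reads in the authors' tables, while the 10 pseudogenes beside these loci had 5420 and 1734. Most reads of Gapdh-like sequence were thus assigned to copies, and how the aligner chose among copies that differ by so few bases was not tested.

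The most-read locus of all, chr11:20334834-20335012 on the minus strand, begins at the last base of Gm12033 and had 1295 reads in replicate 1 and 559 in replicate 2. Gm12033 itself had 632 and 362 reads. The next, chr4:91851488-91851668 on the minus strand, begins at the last base of Gm12671 and had 0 and 758 reads, while Gm12671 had 3128 and 476. Reads of the identical copy and of its flank were therefore split in opposite ways between the libraries. Of the other Gapdh loci, chr5:13042251-13042433 next to Gm10481 had 8 and 22 reads, chrX:80193671-80193854 next to Gm14760 had 0 and 12, and the rest had 4 or fewer in each library.

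Copies of other parents had fewer reads beside them. Pgk1, the glycolytic phosphoglycerate kinase, was matched at 100% identity by the pseudogenes beside 2 loci. Of these, chr12:10898572-10898986 next to Pgk1-rs7 had 313 reads in replicate 1 and 136 in replicate 2, and chr3:58102571-58102996 next to Gm5537 had 82 and 113. The locus chr17:5816057-5816200 next to Gm10231, a copy of Atp5g2 (subunit c of mitochondrial ATP synthase), had 167 and 125 reads. A copy of its paralogue Atp5g1 lay beside chr11:100361604-100361716 with 29 and 61 reads. Both subunit c loci had reads in each library, as had the 2 loci of Pgk1.

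Some loci beside a copy had reads in replicate 2 and none in replicate 1. The locus chr13:45078371-45078498 next to Hsp25-ps1, a copy of the small heat shock protein gene Hspb1, had 0 reads in replicate 1 and 86 in replicate 2. The locus chr12:24637993-24638111, 558 bases past Gm6969, a copy of the respiratory supercomplex factor gene Cox7a2l, had 0 and 103. The locus chr13:54499589-54499705 next to Gm2830, a copy of the ribosomal protein gene Rps24, had 0 and 39. In each of these 3 cases the pseudogene itself had reads in both libraries, 90 and 22 for Hsp25-ps1, 93 and 10 for Gm6969, and 5 and 12 for Gm2830. Loci with a few reads in replicate 1 were chr18:8051992-8052082 next to a copy of the ribosomal protein gene Rps4x (5 and 70), chr13:107413865-107414144 next to Apoo-ps (10 and 49) and chr6:99877618-99877816 next to Tpt1-ps3 (14 and 32).

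Apart from pseudogene neighbours, 216 loci lay within 5 kb downstream of a gene on its strand, with 256 reads in replicate 1 and 915 in replicate 2. For 171 of them the gene was protein-coding, 168 had a neighbour with reads, and 54 shared its last base. Muscle genes were among these neighbours, and the following were chosen after their values were seen. The locus chr2:181141336-181147653 runs on for 6318 bases from the end of Eef1a2, the elongation factor form of muscle and neurons, with 10 reads in replicate 1 and 13 in replicate 2. Loci past Scn4a, the voltage-gated sodium channel of skeletal muscle, and Myl10, a myosin light chain gene, had 0 and 12 and 0 and 11 reads. RefSeq draws Eef1a2, Scn4a and Myl10 longer than GENCODE M21 does. On the same strand, these RefSeq genes cover 5896 bases of the Eef1a2 locus, 1048 of the Scn4a locus and all 764 of the Myl10 locus. A locus of 2171 bases past Myoz1, a Z-disc protein of fast fibres, had 2 and 6 reads beside 3017 and 2327 of Myoz1 itself.

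Loci also lay beside microRNA genes, again chosen after their values were seen. The longest single-exon locus, chr2:180398482-180406618 on the plus strand, begins at the last base of Mir133a-2 and runs 8137 bases, with 9 reads in replicate 1 and 7 in replicate 2. On the same chromosome chr2:180388021-180388467, on the minus strand and 581 bases before Mir1a-1, had 4 and 3 reads. Mir1a-1 and Mir133a-2 encode microRNAs enriched in striated muscle. At the imprinted microRNA cluster of chromosome 12, chr12:109581014-109581612 lay 699 bases past Mir493 on the opposite strand, with 2 and 34 reads. RefSeq draws genes over these places too. Its long noncoding RNA gene Mir1a-1hg, on the plus strand, covers all 447 bases of the Mir1a-1 locus and reaches into the Mir133a-2 locus. Its protein-coding gene Rtl1 covers all 599 bases of the Mir493 locus.

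Most loci start to start with a gene lay beside a gene with reads in this muscle. Of the 235, 198 faced a protein-coding gene, 125 shared the gene's first base and 151 lay within 1 kb. Their neighbours had reads in 83.0% of cases, against 67.8 to 74.7% in the other classes within 5 kb. Of all 55536 annotated genes of every type, 28.4% had a read. No share was taken over protein-coding genes alone, so these shares are not matched for gene type. Of the 235 loci, 174 had fewer reads than the gene they faced. The Klhl41 locus printed above had 4 reads in replicate 1 and 5 in replicate 2, beside 118 and 70 reads of Klhl41. Its intron was the same in both libraries, and its first exon of 380 bases began in both at the border base shared with Klhl41. A 1787-base locus running away from Myod1, the master regulator of the muscle lineage, had 4 and 4 reads beside 48 and 27 of Myod1 (named outside the rule). The divergent locus of Zfp207 had 6 and 16 reads.

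The most-read loci of this class were chr4:148590385-148590570, 933 bases from the start of Srm (spermidine synthase), with 31 reads in replicate 1 and 71 in replicate 2, chr2:181185765-181186003, 1244 bases from Ppdpf, with 0 and 29, and chr7:16047921-16049060, at the first base of Bicra, a subunit of a SWI/SNF chromatin remodeller, with 9 and 18. Reads of the Srm locus exceeded in replicate 2 the 37 of Srm itself, and in replicate 1 they lay close to its 28.

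Loci end to end with a gene were led by a single one. The locus chr7:28187294-28189072 on the minus strand shares the last base of Dyrk1b, a protein kinase found in skeletal muscle, and runs toward it from 1779 bases away, with 253 reads in replicate 1 and 295 in replicate 2. It was the most-read locus next to no pseudogene and had more reads than Dyrk1b itself, which had 177 and 110. RefSeq draws Dyrk1b longer, and all 1779 bases of the locus lie inside that RefSeq gene on the opposite strand. The remaining 208 loci of the class had 227 and 951 reads in all. Among them chr11:100458716-100461670, 944 bases past Klhl11 (a substrate adaptor of a ubiquitin ligase), had 11 and 62 reads and chr6:85844459-85845060, end to end with Ptges3-ps, had 6 and 52. A locus sharing the last base of Srl, the sarcoplasmic reticulum protein sarcalumenin, had 0 and 17 reads and one at Trim72, a membrane repair protein of muscle, 6 and 7 (both named outside the rule). The RefSeq spans of Klhl11, Ptges3-ps, Srl and Trim72 likewise cover the whole locus named beside each, of 2955, 602, 1482 and 360 bases.

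Upstream on the same strand, reads were few. The most-read was chr15:86212657-86214459, which ends at the first base of the small nuclear RNA gene Gm22818, with 14 reads in replicate 1 and 29 in replicate 2. Next came chr4:41317112-41318096, 2223 bases before Dcaf12, with 9 and 18 reads, and chr2:32236382-32236590 before Gm13610 with 4 and 22.

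Far from genes the most-read locus was chr15:103619061-103619240 on the plus strand. It had 55 reads in replicate 1 and 336 in replicate 2, and its nearest gene, the noncoding Gm49272, lay 30552 bases away and had no read in either library. A 177-base locus at chr7:126643199-126643375 had 12 and 67 reads. At chr4:133096216-133101553, a 5338-base locus 7070 bases past Gm26615 had 59 and 10 reads, one of few with more in replicate 1. Among the 40 loci over 50 kb from any gene only chr1:14664665-14664854 reached 10 reads, with 3 and 10. The farthest, chr2:43195679-43196522, lay 321942 bases from Gm13464 and had 0 and 8 reads over 2 exons of 183 and 219 bases. The other 4 of the 5 farthest loci, at chr6:11286353-11286530, chr6:75030926-75031105, chr3:66728523-66728697 and chr13:82916657-82916833, were single exons of 175 to 180 bases with 4 reads or fewer in the sum.

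A narrow length class recurred throughout these distant loci. Of the 1211 single-exon loci, 392 (32.4%) were 170 to 185 bases long, bounds set after the lengths were seen, and 70 had exactly 177 bases. The 16-base windows on either side, 154 to 169 and 186 to 201 bases, held 90 and 40 loci. Among single-exon antisense loci 6.21% were of that length, so the peak in the plot of lengths was far lower there. The class was split between strands, with 190 loci on the plus and 202 on the minus strand, over 21 chromosomes. Their median distance to a gene was 5363 bases, against 1211 bases for all other loci.

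**Figure D4:**
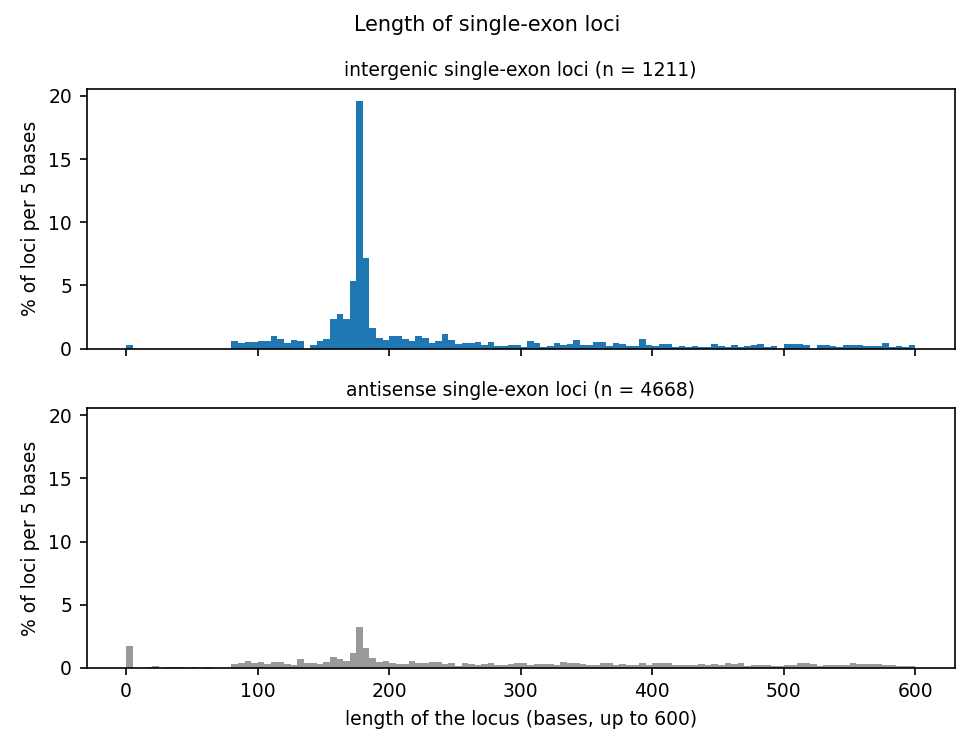
Length of single-exon loci in bins of 5 bases, as percent of the set, for 1211 intergenic loci (upper) and 4668 antisense loci (lower) on the same y axis. A peak at 170 to 185 bases holds 32.4% of the intergenic and 6.21% of the antisense loci.

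Of the 392, 11 lay next to a pseudogene, 10 of which were copies of Gapdh, whose spans of 179 to 184 bases fall in the same range. The other 381 had 340 reads in replicate 1 and 1742 in replicate 2, or 8.94% and 22.7% of member reads. They were thinly covered one by one: 349 had under 10 reads in the sum and the median was 3. Replicate 2 alone showed 194 of them, replicate 1 alone 9, and both 178. The 3 loci of this class with a printed sequence of the same kind had 1 and 1 reads (chr9:72779460-72779643), 0 and 6 (chr19:57404095-57404272) and 0 and 5 (chr7:29237511-29237680). Whether the other loci of the class hold such letters was not tested, since their sequence was not at hand.

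In length the multi-exon loci stood apart from the others. The 127 had a median exonic length of 1009 bases, against 191 bases for single-exon loci, a median intron of 1451 bases and 209 reads in replicate 1 and 310 in replicate 2. Reads in both libraries were present for 96, and 42 had an intron chain identical to the base in both. Of the 127, 57 lay at least 50% inside a RefSeq gene span and 32 inside that of a same-strand RefSeq long noncoding RNA, so RefSeq draws a gene where GENCODE M21 has none. Over all 1338 loci, 385 (28.8%) lay in a RefSeq span, of which 141 matched its strand. The others were not all on the opposite strand, since the RefSeq strand was often not at hand. It was missing for all 77 loci in pseudogene spans, 37 of 176 in protein-coding spans and 26 of 135 in long noncoding RNA spans.

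The most-read spliced locus was chrX:9328976-9332665 on the minus strand, with 10 reads in replicate 1 and 13 in replicate 2. Its intron was the same in both libraries, its first exon measured 217 and 174 bases, and its last exon 949 and 950 bases. At chr18:68342446-68343988, touching the end of the melanocortin receptor gene Mc5r, 6 and 16 reads shared an intron and a last exon of 206 bases while the first exon measured 573 and 68 bases. The locus chr5:139485053-139512000, 504 bases from the start of Zfand2a, joined exons of 51 and 108 bases in replicate 1 and of 52 and 108 bases in replicate 2 over 26948 bases of genome, with 5 and 15 reads. In these 3 cases the splice sites were fixed and the outer ends varied.

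Several other spliced loci also shared introns between the libraries. At chr17:34996683-35000354, 633 bases from the start of Vars, a tRNA synthetase gene, 13 and 6 reads had the same intron, and RefSeq draws D17H6S56E-5 there. At chr9:62660518-62666055 before Itga11, a collagen-binding integrin, 3 and 10 reads had it, and at chr3:95985498-95987768, end to end with Plekho1, 5 and 7 reads shared 2 introns. Shared introns also held at chr3:100820413-100825459 facing Vtcn1 (1 and 10 reads), chr2:32087974-32091803 facing Fam78a (2 and 7) and chr14:43118786-43120242 near Cdv3-ps (4 and 2). By contrast, chr14:31872306-31880458, with 11 and 6 reads, began within 40 bases in both libraries but used different introns, and chr3:137560603-137564413 was spliced in replicate 1 (9 reads) and a single exon in replicate 2 (4 reads). The loci chr5:118789447-118791465 (3 exons, 0 and 16 reads, 24009 bases past the Mediator gene Med13l) and chr9:97141082-97144231 (0 and 13 reads) were read in replicate 2 alone.

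The longest and most complex structures rested on 2 or 3 reads each. The 7-exon model at chr3:57975963-58076098 was 1 read of replicate 2, on the strand opposite to a RefSeq noncoding RNA, Gm40055, whose span covers 55751 of its 100136 bases. Five-exon models lay at chr5:109866352-109885098 with the same chain in both libraries (2 and 1 reads), at chrX:109445411-109561331 with the same chain in both (1 and 1), and at chr13:56377286-56423444, chr2:167849078-167856619 and chr5:104571615-104592160 in 1 library each. The widest span, 166638 bases at chr3:21820476-21987113, joined 1 read of each library that had different introns, and 91025 bases at chr4:47497860-47588884 came from 2 reads of replicate 1. Of the 643 loci seen in both libraries, 45.3% had the same 3′ end and 30.2% the same 5′ end, taking the most-read model of each library, and in 55.1% both ends came within 10 bases. Among the 643 were 141 loci that share a border base with a gene.

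Reads of the loci leaned to replicate 2. The comparison took in every annotated gene, intergenic locus and antisense locus whose summed reads reached 10. Reads of each were set against the reads of annotated genes by a two-sided Fisher's exact test, and p-values were adjusted by the Benjamini-Hochberg method over all of these features. A feature counted as called when its adjusted p was below 0.05 and its log2 ratio (replicate 1 over replicate 2, TMM-scaled CPM) was 1 or more in size. This test compares the 2 libraries only. It used read totals without TMM scaling, so its p-values and the TMM-scaled ratios printed beside them rest on different scalings. Of 145 loci tested, 2 were called higher in replicate 1, against a background of 8.48% of all 9726 features. Another 84 (57.9%) were called lower in replicate 1 and higher in replicate 2, against a background of 15.3%. That background was not matched for length. Annotated genes under 500 bases were called higher in replicate 2 no less often than loci of their length, as given below. The median log2 ratio of the loci was -2.47, against 0.01 for annotated genes. Antisense loci did likewise, with 11 of 608 called higher in replicate 1 and 370 in replicate 2.

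The ratio differed by length, among annotated genes too, and replicate 2 was the library of shorter models. The median log2 ratio of the 22 loci whose models averaged under 170 bases was -2.95. It was -4.09 for the 18 loci from 500 to 1000 bases and -0.66 for the 13 loci from 2000 to 4000 bases. That of annotated genes was -1.86 between 186 and 500 bases and 0.33 from 2000 to 4000 bases. Under 170 bases, 16 of 22 loci and 18 of 24 annotated genes were called higher in replicate 2. The numbers were 23 of 36 and 10 of 14 from 170 to 185 bases, and 26 of 38 and 178 of 243 from 186 to 500 bases. From 500 to 1000 bases the loci had the larger share, 11 of 18 against 470 of 917. From 1000 to 2000 bases it was 7 of 16 against 264 of 2604. With the trend over gene length removed, 9 loci were called higher in replicate 1 and 20 in replicate 2 by an exact binomial test. Of those 20, 19 were among the 84. At short lengths that trend rests on few annotated genes, 24 under 170 bases and 14 from 170 to 185 bases. With edgeR's common dispersion (a biological coefficient of variation of 0.510), edgeR's exact test called 0 loci in replicate 1 and 3 in replicate 2. At an unadjusted p under 0.05 it gave 58 of 145 loci and Fisher's test 100 of 145. That dispersion was estimated from these same 2 libraries taken as 1 group, so it contains the difference under test. The small number of edgeR calls therefore cannot show that the libraries were alike.

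**Figure D5:**
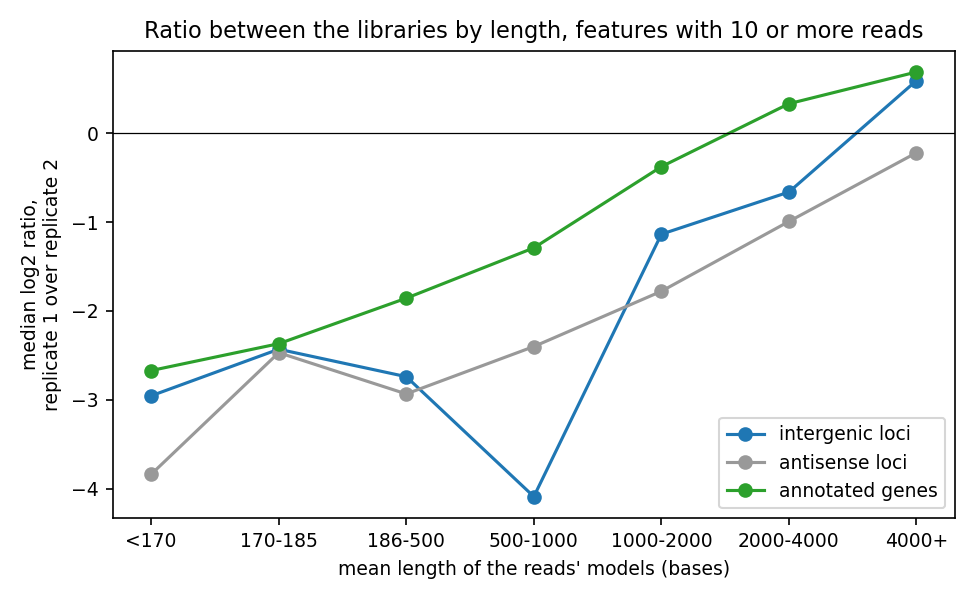
Median log2 ratio of replicate 1 over replicate 2 (y axis) by mean model length in bases (x axis, classes) for intergenic loci, antisense loci and annotated genes with 10 or more reads. Intergenic loci lie at -2.95 under 170 bases, lowest at -4.09 between 500 and 1000 bases and at -0.66 between 2000 and 4000 bases, on 22, 18 and 13 loci, and annotated genes lie below 0 under 2000 bases and above it from there on.

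The largest differences were of loci with no read in one library. The Gm12671 locus was at least 347-fold lower in replicate 1 (taking 3 reads for the 0, Fisher's exact test, adjusted p = 7.49e-247), the Cox7a2l copy's at least 47.2-fold lower (adjusted p = 7.57e-33), and the Hspb1 copy's at least 39.4-fold lower (adjusted p = 2.38e-27). The loci at Gm2830 and Ppdpf were at least 17.9-fold and 13.3-fold lower. In all, 31 of the 84 had no read in replicate 1. All 31 tested loci with no read in replicate 1 were called. Each had reached the minimum of 10 summed reads through replicate 2 alone, so their calls are partly a result of that selection. Both loci called higher in replicate 1 were long: chr4:133096216-133101553, 4.29-fold higher (59 and 10 reads, Fisher's exact test, adjusted p = 1.94e-07), and chrY:67834528-67837188, at least 8.0-fold higher (33 and 0 reads, adjusted p = 1.76e-08).

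Among the 20 most-read loci the ratio lay on both sides of 1. The Atp5g2 copy's locus had a log2 ratio of -0.04 and did not pass the test. The Gm12033 locus was 1.69-fold and the Pgk1-rs7 locus 1.67-fold higher in replicate 1, both under the 2-fold minimum for a call. Their adjusted p by Fisher's exact test were 1.65e-47 and 1.34e-11. Without TMM scaling, as in that test, they had 1037 and 251 CPM in replicate 1 and 505 and 123 CPM in replicate 2. With the length trend removed the log2 ratios of these loci were 3.33 and 2.58 and both passed that minimum. The Gm12033 locus, of 179 bases, lies where the trend rests on few genes. The distant locus on chromosome 15 was 8.40-fold lower in replicate 1 (55 and 336 reads, Fisher's exact test, adjusted p = 3.56e-56), a log2 ratio of -3.06 that went to -0.49, no longer called, with the length trend removed. The locus of the Rps4x copy was 19.2-fold lower (5 and 70 reads) and the 99-base locus chrX:64498790-64498888, 2133 bases past a small nucleolar RNA gene, was 13.7-fold lower (8 and 80 reads). Their log2 ratios of -4.12 and -3.69 went to -0.98 and -0.62 with the length trend removed, and neither was then called. The Dyrk1b locus had a log2 ratio of -0.68 and was not called.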

How the data were processed

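Long-read RNA libraries of 2 biological replicates were analysed. The authors deposited, per library, raw read counts per transcript model and the exons of each model as a GTF file, whose attributes name TALON. The build is mm10 with GENCODE M21, per the notes deposited beside the files. No aligner or sequencing platform is named there. Coordinates count from 1. The members and lists were chosen with earlier results of these data known.

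Models of the class Intergenic were merged by overlap of start to end on one strand, and distances taken to GENCODE M21 gene spans. Pseudogenes were matched to protein-coding transcripts with blastn 2.17.0 (e-value 1e-20). Fisher's exact test ran on 9726 features without TMM scaling. Ratios used TMM factors from edgeR 4.0.16 and a prior count of 0.5, with edgeR's exact test and DESeq2 1.42.0 size factors as alternatives. Counts for this comparison were also simulated with counting error only, without spread between the libraries or a length trend. Of 200 features changed 4-fold 134 were recovered, with 2 false calls in the 9726 features simulated. The simulation therefore cannot tell how many of the calls made here are false. The labels do not say that the replicates are separate animals throughout. With a single library on each side, p-values of Fisher's exact test measure counting error only and no spread between animals. Loci were named by rule: the 20 most-read, the 10 most-read multi-exon, the 5 with most exons, the 10 most-read with an identical intron chain, the 5 longest, the 5 farthest, up to 5 called with the largest ratio in each direction and 3 per position class. Promoter sequences are from RefSeq (GRCm38.p6). A further sequence comparison is not reported here.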

Additional observations from a re-analysis of the deposited data

How the results depend on the processing

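Counts of loci followed the reads asked for. With 5 and 10 reads in the sum the number of loci was 368 and 145, of those in both libraries 254 and 113, of multi-exon loci 24 and 12, of same-strand downstream loci 104 and 46, and the median distance 1792 and 1277 bases. With a read needed in each library 643 loci, 143 downstream and a median distance of 2626 bases were left. The median distance was 2345.5 bases when models were merged by exons, 2289.5 regardless of strand, 2273.5 when merged up to 1 kb apart, 4797 to protein-coding genes only and 8970 to genes on the same strand only. Without loci that share a base with a same-strand gene it was 3008 bases and 174 loci were downstream. Leaving out either library gave 300 to 1004 loci, 37 to 51 multi-exon, median lengths of 187 to 426 bases, median distances of 1779.5 to 2464 bases and 79 to 224 downstream loci. Other settings kept each count within 1.5 times.

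Of reads of annotated genes, members were 0.695% in replicate 2. The following were added after seeing the data. Without the most-read locus the shares were 0.198% in replicate 1 and 0.613% in replicate 2, and without pseudogene neighbours 0.142% and 0.456%, with a median distance of 2706 bases. Without the 170 to 185-base loci the median length was 417.5 and the median distance 1211 bases.

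Calls higher in replicate 1 numbered 4 with scaling by total reads, 9 with the length trend removed and 0 with edgeR's exact test. Calls higher in replicate 2 numbered 128 at 5 reads, 20 with the trend removed and 3 with edgeR's exact test. Over all features, removing the trend left 242 and 585 calls and edgeR's exact test 1 and 3. With the trend removed the log2 ratio turned to 2.71 for the Atp5g2 copy's locus, 0.92 for Srm's, 1.44 for the Atp5g1 copy's, 0.68 on the unplaced scaffold GL456382, 0.88 for Tpt1-ps3's and 0.74 for Zfand2a's. Loci not called before also changed sign, to 0.90 for Gm5537's, 0.20 for Dyrk1b's, 0.29 for Dcaf12's, 0.06 for Mc5r's and 0.53 for chr1:14664665-14664854. A further 10 named loci lost their call with the sign kept, and 2, those of Gm12033 and Pgk1-rs7, gained one. With scaling by total reads the median of annotated genes moved to 0.29, and the Gm12033 and Pgk1-rs7 loci, at 1.04 and 1.03, passed the minimum for a call. DESeq2's size factors and a prior count of 2 changed no call among 39 named loci. The Atp5g2 copy's locus, of 144 bases, lies where the length trend rests on few annotated genes. The cause of the changes under these settings was not tested.

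No paired analysis was possible because the design has a single group. The settings on A-rich flanks and the description of splice sites were not run, since they need genome sequence that was not used here. With a median of 3 reads per locus, absence from a library was mostly not detectable at this depth.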

Other observations

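On the Y chromosome lay 6 loci, in libraries labelled female, with 39 reads in replicate 1 and 12 in replicate 2. Of these reads 33 in replicate 1 came from the single locus chrY:67834528-67837188, a 2661-base exon 5037 bases from the nearest gene, the pseudogene Gm29639. Next to Gapdh-ps15, chrY:38620784-38620966 had 1 and 2 reads.

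On unplaced scaffolds without annotated genes 3 loci were found, led by chrUn_GL456382:14202-14752 with 24 reads in replicate 1 and 41 in replicate 2.

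A span of 1 base was recorded for 3 members: chr10:71285904-71285904 (2 and 0 reads) and chr10:71285942-71285942 (0 and 3 reads), 642 and 680 bases before Ube2d1, and chr15:102954341-102954341 (0 and 2 reads), 86 bases from Hoxc11.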
